A study of Mus musculus with 16 samples.

Results

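The genes described here are 48 genes of DNA replication and nucleotide supply in mouse embryonic fibroblasts with and without Hmgb1, measured on Illumina bead arrays. They were chosen by gene symbol from a list of replication and nucleotide metabolism genes, and every probe that carried one of these symbols, or an older symbol of the same gene, was read. Of the 48 genes, 45 had a probe, with 74 probes in all, out of 16593 genes and 25697 probes on the array. A probe was tested when its detection p-value was under 0.01 on every array of at least 1 group, which left 39 of the 48 genes with 50 probes, out of 8428 genes and 12078 probes. Orc1, Orc2, Pola1, Prim1, Pole2 and Slbp had a probe that did not reach this level, and Gins1, Gins2 and Rfc3 had no matching probe. Of the 39 tested genes, 30 were detected on all 16 arrays. Mcm7 was detected on 11 arrays, Gins3 on 13 and Mcm3 on 14, and Pola2, Pold2, Rpa2, Dut, Ung and Ccne1 each missed 1 array, which was G1 KO replicate 1. Each gene was read by its brightest tested probe, and 8 of the 39 had more than 1 tested probe.

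The fibroblasts were wild-type (Wt) or Hmgb1-/- (KO), and each pair of Wt and KO cells came from embryos of a single Hmgb1+/- mother mated with a Hmgb1+/- male. There were 3 such mothers, and cells were kept in culture up to passage 3. Hmgb1 is an abundant chromatin protein that bends DNA. Cells of each genotype were taken while cycling (3 arrays), after synchronisation in G1 (3 arrays) and after synchronisation in S phase (2 arrays), which makes 6 groups. How the cells were synchronised is not given in the sources used here, and the labels give no measured share of cells in each phase. The comparisons asked how the replication genes differed between the phases, and whether they differed between KO and Wt cells within a phase or across them.

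Replication origins are licensed in G1, when the origin recognition complex, Cdc6 and Cdt1 load the Mcm2-7 helicase onto DNA. At the start of S phase the kinase Cdc7 with its activator Dbf4, together with cyclin E and its kinase, turns the loaded helicase into an active fork that carries Cdc45 and the GINS complex, followed by the polymerases, the sliding clamp Pcna and the enzymes that make the nucleotides. Many of these genes are known targets of E2F transcription factors, which the retinoblastoma protein holds back in G1, so their mRNA is low in resting and early G1 cells and rises towards S phase.

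Mean intensity per array ran from 394 on G1 KO replicate 1 to 776 on cycling KO replicate 2, and 9970 to 12354 probes per array were detected. G1 KO replicate 1 was the dimmest array and correlated with its own group at 0.881 at the lowest. The lowest correlation within a group was 0.941 in cycling Wt, 0.977 in cycling KO and 0.948 in G1 Wt cells, whereas the S arrays of a group correlated at 0.994 or 0.995. Whether the S arrays of a group are separate cell lines was not tested. G1 KO replicate 1 was the lowest of the 16 arrays for 23 of the 39 genes, and the results on G1 KO cells that it moved most are given without it as well. The single Hmgb1 probe was detected on 1 of 16 arrays, G1 Wt replicate 2, with levels of 4.48 to 5.75 over all arrays, so it did not check the genotype. Of 12 fibroblast markers with a probe, 11 were detected on all 16 arrays, with Col1a1 between 13.90 and 14.52 and Vim between 13.45 and 14.48. Other fibroblast markers ranged more widely, Dcn from 11.09 to 14.45, Pdgfra from 7.49 to 11.91 and Lum, detected on 13 arrays, from 4.95 to 13.04. Of these 12 markers 4 were higher and 1 was lower in G1 than in cycling cells by limma, and 1 was lower in KO than in Wt cells in the mean over phases; their part in the results below was not tested. Macrophage genes were present as well: 4 of the 8 macrophage and leukocyte markers with a probe (Adgre1, Lyz2, Cd14 and Laptm5) were detected on all 16 arrays, whereas Itgam was detected on 1, Fcgr1 on 6, Ptprc on 8 and Tyrobp on 15. The mean of these 8 markers was 8.01 in cycling Wt, 8.40 in cycling KO, 8.71 in G1 Wt, 8.50 in G1 KO, 9.60 in S Wt and 9.21 in S KO cells, with single arrays from 7.86 to 10.22. Its group means were highest in S cells, but the widest range of single arrays, 7.86 to 10.22, lay within G1 Wt cells. By limma 1 of the 7 tested markers was called, higher in S than in cycling cells, and none was called between G1 and cycling or between S and G1 cells. The part of these markers in the phase differences below was not tested. All levels are log2 of the normalized intensity, and differences are log2 differences with the standard error from limma. In bulk RNA, fewer cells in S phase and less RNA per cell cannot be told apart.

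Most of these genes were lower in G1 cells than in cycling cells. By limma, with adjustment over all 12078 probes and a threshold of 0.05, 26 of the 39 tested genes fell and none rose (32 of the 39, and 34.1% of all genes, had an unadjusted p under 0.05). Over all 8428 tested genes, 10.2% were lower, 10.6% were higher and 20.8% changed in either direction. The median log2 difference was -0.79 over the 39 genes and -0.03 over all genes. For 20 of the 39 genes every G1 array was below every cycling array, which held for 4.54% of all genes, and for none was it the other way round, against 4.69% of all genes. The lowest group mean was in a G1 group for 34 of the 39 genes, 31 of them in G1 KO and 3 in G1 Wt cells. Without G1 KO replicate 1 it was in a G1 group for 32 genes, 27 of them in G1 KO and 5 in G1 Wt cells, and 30 of the 39 genes were called, with a median difference of -0.76.

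**Figure D1:**
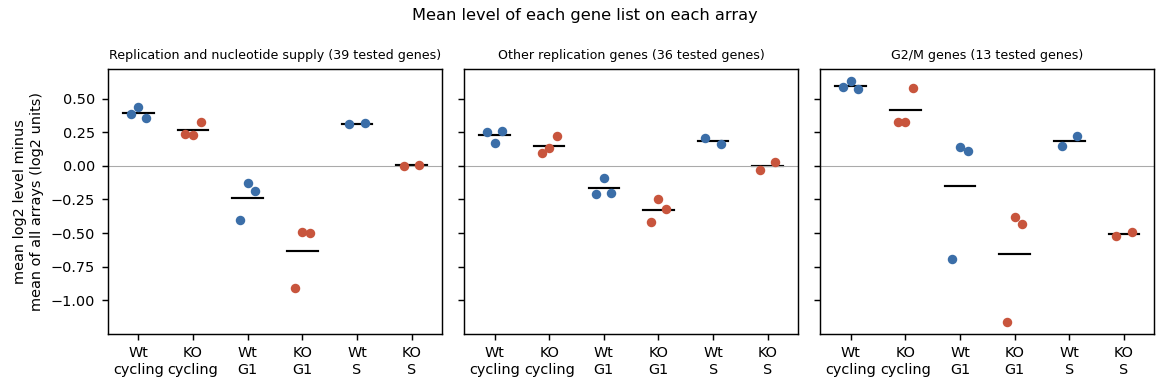
Mean log2 level on each array, minus the mean over all 16 arrays, of the 39 tested replication and nucleotide supply genes (left), of 36 other replication genes (middle) and of 13 G2/M genes (right). Points are arrays, blue for Wt and red for KO, and lines are group means. The 39 genes ran from 0.23 to 0.44 on cycling arrays, from -0.91 to -0.13 on G1 arrays and from 0.00 to 0.32 on S arrays.

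Among the loading factors and helicase subunits, 7 of 9 tested genes were lower in G1. Cdc6, the ATPase that loads the helicase, read 8.16, 8.45 and 8.29 in cycling Wt cells, 8.04, 7.92 and 8.05 in cycling KO cells, 6.81, 7.30 and 7.38 in G1 Wt cells, 6.24, 6.77 and 6.97 in G1 KO cells, 7.62 and 7.72 in S Wt cells and 7.43 and 7.92 in S KO cells. All 6 G1 arrays were below all 6 cycling arrays, a fall of 1.24 on the log2 scale, or 2.36-fold (SE 0.16, adjusted p = 0.000135). Mcm2, a helicase subunit, read 8.65, 8.85 and 8.94 in cycling Wt cells, 8.27, 8.14 and 8.66 in cycling KO cells, 7.13, 7.38 and 7.48 in G1 Wt cells, 7.43, 6.94 and 6.62 in G1 KO cells, 8.0 and 8.16 in S Wt cells and 8.11 and 7.98 in S KO cells. Here too the G1 and cycling arrays did not overlap, and the difference was -1.42 ± 0.15 (adjusted p = 3.89e-05). The other helicase subunits differed by -0.98 ± 0.11 (adjusted p = 6.94e-05) for Mcm5, -1.0 ± 0.25 (adjusted p = 0.012) for Mcm6, -1.05 ± 0.23 (adjusted p = 0.00529) for Mcm3 and -0.72 ± 0.12 (adjusted p = 0.000806) for Mcm4. Mcm7 fell too, by 0.89, but it was detected on only 1 of the 6 G1 arrays, so its G1 level is largely at background. Of the 4 tested Mcm6 probes, the brightest and 1 other were called. Another of the 4, detected on 1 array in each G1 group, read 10.69, 5.15 and 5.47 in G1 Wt and 10.64, 5.14 and 5.30 in G1 KO cells. Orc6, a subunit of the origin recognition complex, differed by -0.52 ± 0.23 (adjusted p = 0.12) and did not pass.

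Cdt1, which works beside Cdc6 in loading, did not follow the other licensing genes (it was singled out after its values were seen). It read 9.53, 9.96 and 8.93 in cycling Wt cells, 10.03, 9.75 and 9.78 in cycling KO cells, 9.92, 9.85 and 10.05 in G1 Wt cells, 9.27, 9.53 and 9.73 in G1 KO cells, 9.11 and 9.31 in S Wt cells and 8.92 and 8.91 in S KO cells. Its G1 Wt arrays were among its highest and its S KO arrays were its lowest. Cdt1 differed by 0.06 ± 0.16 (adjusted p = 0.85) between G1 and cycling cells and by -0.66 ± 0.18 (adjusted p = 0.0355) between S and G1 cells. It was the only tested member called lower in S than in G1 cells, of 5 with a difference below 0. That call was lost in 17 of 30 alternatives, with adjusted p from 2.83e-05 to 0.647, and its direction was kept in all 30.

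Of the factors that activate the helicase, 4 of 5 tested were lower in G1. Dbf4, the activating subunit of Cdc7 kinase, read 9.90, 10.17 and 10.52 in cycling Wt cells, 9.62, 9.76 and 10.06 in cycling KO cells, 7.98, 9.04 and 9.15 in G1 Wt cells, 8.86, 9.06 and 8.90 in G1 KO cells, 9.28 and 9.59 in S Wt cells and 9.22 and 9.27 in S KO cells. The cycling arrays were the 6 highest, and the difference between G1 and cycling cells was -1.17 ± 0.20 (adjusted p = 0.00101). Cdc45, which travels with the helicase, differed by -0.86 ± 0.16 (adjusted p = 0.0023), Mcm10, which helps to open the origin, by -0.79 ± 0.13 (adjusted p = 0.00111), and Gins3, a GINS subunit, by -0.62 ± 0.18 (adjusted p = 0.0249). Gins3 was detected on 3 of the 6 G1 arrays, so its G1 level is partly at background. Cdc7 itself differed by -0.47 ± 0.17 (adjusted p = 0.061) and did not pass. A second, dimmer Mcm10 probe, detected on 1 of the 6 G1 arrays, was not called.

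Among the polymerases, Pole, the catalytic subunit of the leading-strand polymerase, differed by -1.18 ± 0.16 (adjusted p = 0.000179), and Pola2, the regulatory subunit of polymerase alpha, by -0.83 ± 0.14 (adjusted p = 0.00101). Pold1 and Pold2, the catalytic and small subunits of polymerase delta, differed by -0.56 and -0.64 and did not pass, and Prim2, the large primase subunit, differed by 0.05. A second Prim2 probe had means of 7.14 in cycling Wt and 6.73 in G1 Wt cells, but 6.95 in cycling KO and 7.01 in G1 KO cells. Of the 3 subunits of replication protein A, which coats single-stranded DNA, Rpa1 fell by 0.84 (adjusted p = 0.0009). Rpa2 and Rpa3 differed by -0.56 and -0.27 without passing, although the second Rpa2 probe was called at -0.56 (adjusted p = 0.0128). Pcna, the sliding clamp, differed by -0.28 ± 0.20 (adjusted p = 0.36) and did not pass. In the clamp loader, Rfc4 and Rfc5 fell by 1.09 and 0.65 in the mean of the genotypes, whereas the large subunit Rfc1 and Rfc2 differed by -0.20 and -0.46. Rfc4 differed by -0.93 within Wt and -1.26 within KO cells, but Rfc5 by -0.02 within Wt and -1.29 within KO cells. The interaction for Rfc5, given below, did not pass. The flap nuclease Fen1 and the ligase Lig1, which join Okazaki fragments, fell by 0.42 and 0.85, but the other 2 tested Lig1 probes, each detected on at most 1 of the 6 G1 arrays, were not called.

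Thymidine kinase Tk1, which makes thymidine monophosphate from thymidine, had the largest difference of the 39 genes. It read 9.93, 9.68 and 9.50 in cycling Wt cells, 9.25, 9.29 and 9.41 in cycling KO cells, 8.33, 8.76 and 8.24 in G1 Wt cells, 6.56, 7.98 and 7.62 in G1 KO cells, 9.69 and 9.63 in S Wt cells and 8.77 and 8.74 in S KO cells. Every G1 array was below every cycling array, and Tk1 was 3.01-fold lower in G1, -1.59 ± 0.20 (adjusted p = 0.000145). Its second probe, not detected on any G1 array, was at least 1.37-fold lower there (adjusted p = 7.31e-05). The subunits of ribonucleotide reductase, which makes deoxynucleotides, fell with it. Rrm2 read 9.08, 9.37 and 9.96 in cycling Wt cells, 9.21, 9.40 and 9.70 in cycling KO cells, 7.64, 8.62 and 8.71 in G1 Wt cells, 7.58, 8.54 and 8.47 in G1 KO cells, 9.63 and 9.46 in S Wt cells and 9.38 and 9.16 in S KO cells. The G1 arrays were the 6 lowest, and Rrm2 differed by -1.19 ± 0.23 (adjusted p = 0.00279) and Rrm1 by -1.12 ± 0.17 (adjusted p = 0.000441). Ung, the uracil-DNA glycosylase, fell by 0.73 (adjusted p = 0.0382) in the mean of the genotypes. It differed by -0.25 within Wt and -1.21 within KO cells, and its mean difference was -0.52 without G1 KO replicate 1. Dut, which removes dUTP, differed by -0.38 ± 0.18 (adjusted p = 0.155) and did not pass. Nor did Tyms, thymidylate synthase, at -0.78 ± 0.30 (adjusted p = 0.0844). The second Tyms probe was called at -0.99 (adjusted p = 0.0461).

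The E-type cyclins and the genes that copy DNA methylation, 4 of 4 tested, were all lower in G1. Ccne1 fell by 1.12 and Ccne2 by 0.99, with adjusted p of 0.0104 and 0.00177. Uhrf1, which recognises hemimethylated DNA, differed by -1.14 ± 0.16 (adjusted p = 0.000234) and Dnmt1, the maintenance methyltransferase it recruits, by -0.48 ± 0.11 (adjusted p = 0.00867). By the numbers in the array codes, taken as slides, slide 1 carried all cycling arrays and G1 pair 3, and G1 pairs 1 and 2 were on slide 2. With the slide as a block 14 of the 39 genes were called, and with slide 1 alone 15 were, both with a median of -0.71. With only the arrays numbered 1 and 3 in the fit, 1 gene was called. Of the 26 calls, Ung was lost in 18 and Gins3 in 11 of 30 alternatives, and the other 24 in 0 to 8.

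**Figure D2:**
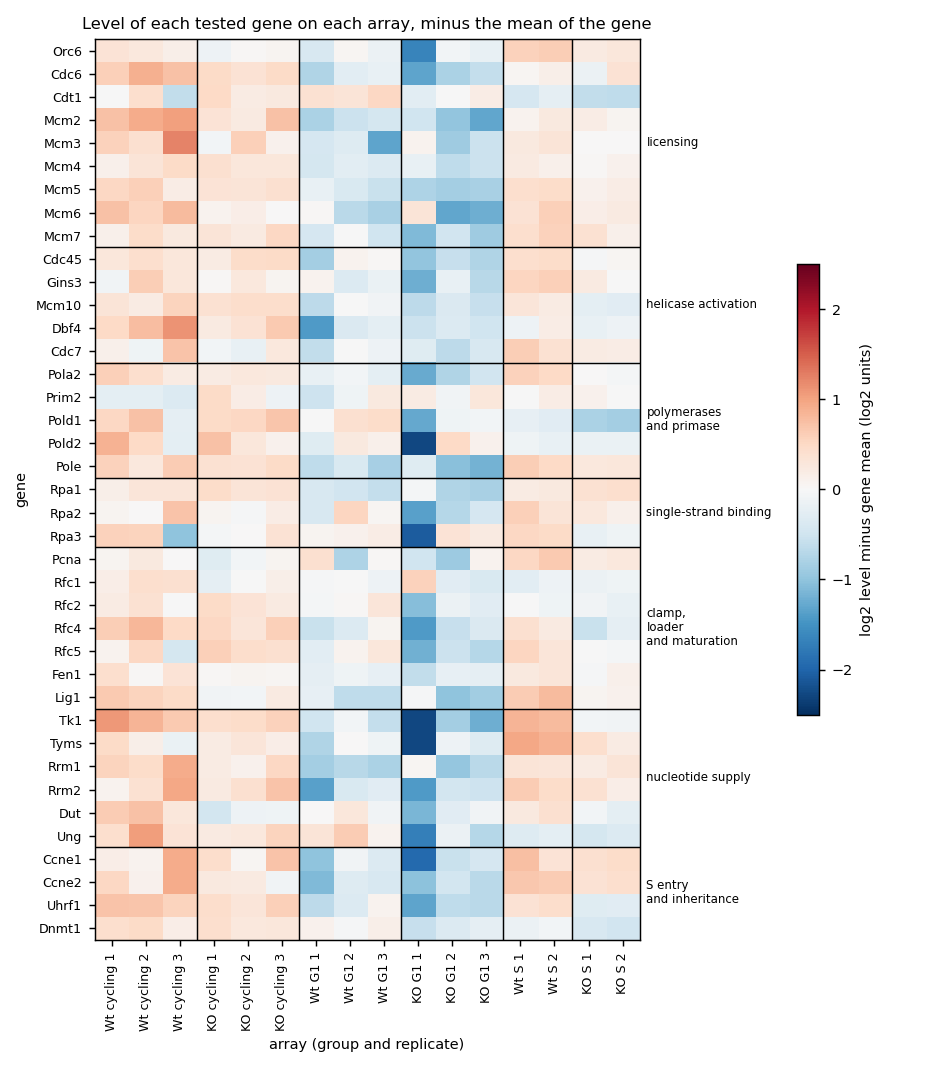
Level of each of the 39 tested genes (rows, ordered by role) on each of the 16 arrays (columns), as log2 level minus the mean of that gene over the arrays. Red is above and blue below the gene's mean. The G1 columns are mostly blue, with G1 KO replicate 1 the lowest array for 23 of the 39 genes, and Cdt1 and Prim2, the latter by its brightest probe, break the pattern.

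From G1 to S cells 21 of the 39 genes rose and 1, Cdt1, fell by limma, whereas 5.98% of all tested genes were higher, 6.1% were lower and 12.1% changed in either direction. The median difference was 0.71 over the 39 genes and 0.03 over all genes, and 18 of the 39 genes had every S array above every G1 array, against 7.11% of all genes. There were 18 genes called both lower in G1 than in cycling cells and higher in S than in G1 cells, but both comparisons share the G1 arrays, so these calls are not independent.

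**Figure D3:**
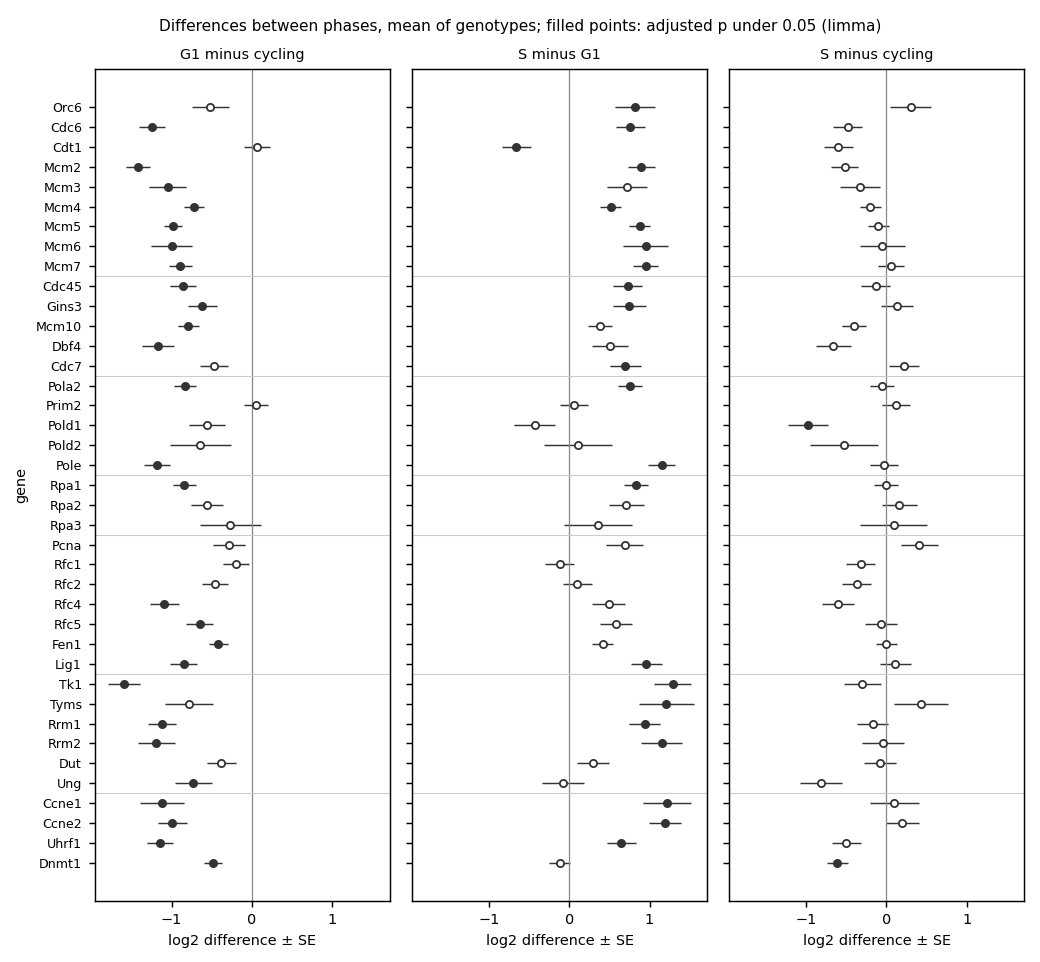
Log2 difference (point) with its standard error (bar) for each of the 39 tested genes, averaged over the genotypes, for G1 minus cycling, S minus G1 and S minus cycling cells. Filled points passed an adjusted p of 0.05 in limma. Filled points lie left of 0 in the first panel (26 genes), right of 0 in the second except Cdt1 (21 genes), and there are 2 in the third, Pold1 and Dnmt1.

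The largest increases were in nucleotide supply and in the E-type cyclins. Tk1 was 2.44-fold higher in S than in G1, 1.29 ± 0.23 (adjusted p = 0.00406), and its lowest S array, at 8.74, was just below its highest G1 array, at 8.76. Its second probe, detected on no G1 array and on 2 of 4 S arrays, was not called (adjusted p = 0.0576). Ccne1, which activates the kinase Cdk2 at the entry into S phase, read 6.74, 6.66 and 7.50 in cycling Wt cells, 7.03, 6.63 and 7.30 in cycling KO cells, 5.58, 6.50 and 6.23 in G1 Wt cells, 4.63, 6.03 and 6.17 in G1 KO cells, 7.34 and 6.93 in S Wt cells and 6.98 and 7.05 in S KO cells. All 4 S arrays were above all 6 G1 arrays, by 1.22 ± 0.30 (adjusted p = 0.0218). Ccne2 read 7.72, 7.32 and 8.13 in cycling Wt cells, 7.46, 7.43 and 7.12 in cycling KO cells, 6.10, 6.88 and 6.82 in G1 Wt cells, 6.18, 6.75 and 6.53 in G1 KO cells, 7.88 and 7.85 in S Wt cells and 7.57 and 7.64 in S KO cells. It showed the same separation, with a difference of 1.19 ± 0.20 (adjusted p = 0.00301). Tyms read 10.48, 10.16 and 9.85 in cycling Wt cells, 10.21, 10.31 and 10.17 in cycling KO cells, 9.25, 10.01 and 9.90 in G1 Wt cells, 7.74, 9.89 and 9.69 in G1 KO cells, 10.97 and 10.88 in S Wt cells and 10.42 and 10.22 in S KO cells. Its S Wt arrays were the highest of all 16 and G1 KO replicate 1 was the lowest. Tyms differed by 1.21 ± 0.34 (adjusted p = 0.0356), and its second probe by 1.02, which was not called (adjusted p = 0.0853). Rrm2 and Rrm1 rose by 1.15 and 0.94.

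Licensing genes followed, with 7 of 9 higher in S. Mcm6 and Mcm7 rose by 0.95 each, Mcm2 by 0.90, Mcm5 by 0.88, Orc6 by 0.82, Cdc6 by 0.76 and Mcm4 by 0.52, and Mcm3 differed by 0.72 ± 0.25 (adjusted p = 0.0853). Orc6 passed narrowly, with an adjusted p of 0.05 after rounding. Of the helicase activators Gins3, Cdc45 and Cdc7 rose by 0.75, 0.73 and 0.70, while Dbf4 and Mcm10 differed by 0.51 and 0.38 and did not pass. Pole rose by 1.15, Lig1 by 0.96, Rpa1 by 0.83, Pola2 by 0.76 and Uhrf1 by 0.65. In the clamp group only Lig1 passed of 7 tested genes, with Pcna at 0.69 ± 0.23 (adjusted p = 0.0639) and Rfc1 at -0.12 ± 0.18 (adjusted p = 0.736). Pold1, Dnmt1 and Ung were below 0, at -0.43, -0.12 and -0.08, and did not pass. Within the genotypes Ung differed by -0.63 in Wt and 0.48 in KO cells.

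Each S group had 2 arrays. Leaving out S Wt replicate 1, S Wt replicate 2, S KO replicate 1 or S KO replicate 2 gave 10, 10, 11 and 10 calls in place of 22 over both directions. With slide 2 alone, which held all S arrays and the G1 pairs numbered 1 and 2, no gene was called by limma, although the median stayed at 0.74 and 26 of the 39 had an unadjusted p under 0.05. With the pair as a random block 14 were called. Of the 22 calls, Orc6 was lost in 23, Mcm6 in 20, Cdt1 in 17, Tyms in 16, Gins3 in 15, Cdc7 and Mcm4 in 11 each and Uhrf1 in 10 of 30 alternatives, and the other 14 in 2 to 8.

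Between S and cycling cells few of these genes were called. Of the 39 genes 2 were lower in S and none higher by limma, against 3.61% lower, 5.02% higher and 8.63% in either direction over all genes, and the median was -0.08 against -0.01. Pold1 read 9.12, 9.33 and 8.38 in cycling Wt cells, 9.08, 9.13 and 9.30 in cycling KO cells, 8.60, 9.0 and 9.06 in G1 Wt cells, 7.32, 8.50 and 8.54 in G1 KO cells, 8.39 and 8.32 in S Wt cells and 7.82 and 7.76 in S KO cells. The S KO arrays were below every cycling array, S Wt arrays lay next to cycling Wt replicate 3, and the difference was -0.98 ± 0.25 (adjusted p = 0.0264). Dnmt1 read 9.79, 9.85 and 9.53 in cycling Wt cells, 9.79, 9.63 and 9.65 in cycling KO cells, 9.48, 9.35 and 9.52 in G1 Wt cells, 8.80, 9.03 and 9.15 in G1 KO cells, 9.22 and 9.31 in S Wt cells and 8.98 and 8.89 in S KO cells. Its 4 S arrays were below all 6 cycling arrays, by -0.61 ± 0.13 (adjusted p = 0.0109). Ung and Dbf4, at -0.81 ± 0.26 (adjusted p = 0.0708) and -0.66 ± 0.22 (adjusted p = 0.0823), did not pass. With Dnmt1 they made up the 3 of 39 genes with every S array below every cycling array, against 6.96% of all genes. The Pold1 call was lost in 14 and the Dnmt1 call in 6 of 29 alternatives, including the fits without S Wt replicate 1 or S KO replicate 2. The second Tk1 probe, detected on 2 of 4 S arrays, was called at -0.73 (adjusted p = 0.0154), whereas the brighter one differed by -0.30 (adjusted p = 0.487). All cycling arrays were on slide 1 and all S arrays on slide 2, linked only through the G1 arrays: with the slide as a block none of the 39 genes was called by limma, and 4 had an unadjusted p under 0.05. Median scaling also left no call, with 3 genes at an unadjusted p under 0.05 and the median of the 39 genes at 0.05, where the median of all genes had moved to 0.11.

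Other genes of the cell cycle were read beside them. Of 36 other tested replication genes, 11 (30.6%) were lower in G1 than in cycling cells and none higher, with a median of -0.44. Over all genes 10.2% were lower and 10.6% higher. By limma 17 of the 36 had an unadjusted p under 0.05, against 34.1% of all genes. From G1 to S 6 of the 36 (16.7%) rose, against 5.98% of all genes, with a median of 0.32. Among the 36, those lower in G1 by the most were Chaf1b, a subunit of the histone chaperone CAF-1, at -1.15 ± 0.17, and Samhd1, a deoxynucleotide triphosphatase, at -1.14 ± 0.16. Clspn, the checkpoint mediator claspin, rose from G1 to S by 1.19 ± 0.16 (adjusted p = 0.000873). Of 13 tested G2/M genes, 11 were lower in G1 than in cycling cells, against 10.2% of all genes, with a median of -0.94. From G1 to S 2 of the 13 rose, against 5.98% of all genes. In S cells 4 of the 13 were lower than in cycling cells, against 3.61% of all genes, with a median of -0.58. The 39 replication genes had a median of -0.08 in that last comparison.

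The promoters of 5 licensing and nucleotide genes are printed because they carry, or lack, letters like an E2F site. RefSeq (GRCm38.p6) listed 51 promoters for 41 of the 48 genes, each with 250 bases before and 50 bases from the start. The letters TTTCCCGC, TTTGGCGC, TTTCGCGC and TTTGCCGC were searched on both strands, and matches may overlap. They occurred in 15 of the 51 promoters (29.4%), and in 744 of all 32851 promoters of that length (2.26%). Among tested genes with a promoter in the table, 9 of 23 that fell in G1 and 2 of 11 that were not called had a match. In the sequences, read 5′ to 3′ along the gene's strand, capitals mark the matches.
Cdc6, chr11:98907901-98908200, plus strand: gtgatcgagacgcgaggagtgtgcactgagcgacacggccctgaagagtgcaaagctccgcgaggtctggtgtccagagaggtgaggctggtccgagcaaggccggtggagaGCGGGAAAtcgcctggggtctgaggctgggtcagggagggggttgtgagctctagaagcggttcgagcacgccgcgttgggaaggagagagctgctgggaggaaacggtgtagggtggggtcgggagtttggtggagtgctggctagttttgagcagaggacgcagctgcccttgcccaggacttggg
Mcm5, chr8:75109259-75109558, plus strand: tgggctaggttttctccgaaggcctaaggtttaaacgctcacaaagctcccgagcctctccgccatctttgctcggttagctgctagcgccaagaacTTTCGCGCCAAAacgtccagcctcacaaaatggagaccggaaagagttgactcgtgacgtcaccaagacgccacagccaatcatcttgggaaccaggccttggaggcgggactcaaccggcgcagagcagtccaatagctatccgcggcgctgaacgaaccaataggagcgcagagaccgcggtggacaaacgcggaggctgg
Mcm6, chr1:128359656-128359955, minus strand: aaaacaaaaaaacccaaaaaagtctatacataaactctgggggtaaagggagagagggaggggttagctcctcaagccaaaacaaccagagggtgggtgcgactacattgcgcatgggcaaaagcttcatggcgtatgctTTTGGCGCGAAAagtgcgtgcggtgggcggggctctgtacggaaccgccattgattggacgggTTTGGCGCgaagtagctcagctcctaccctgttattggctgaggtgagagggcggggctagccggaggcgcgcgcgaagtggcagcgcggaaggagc
Cdt1, chr8:122567765-122568064, plus strand: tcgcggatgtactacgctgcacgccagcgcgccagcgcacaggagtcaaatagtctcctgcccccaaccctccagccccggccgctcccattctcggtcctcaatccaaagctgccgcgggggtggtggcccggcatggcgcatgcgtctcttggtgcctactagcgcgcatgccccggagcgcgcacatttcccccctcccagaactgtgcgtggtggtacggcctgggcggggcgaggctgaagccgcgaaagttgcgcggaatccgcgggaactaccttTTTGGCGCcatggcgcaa
Tk1, chr11:117825965-117826264, minus strand: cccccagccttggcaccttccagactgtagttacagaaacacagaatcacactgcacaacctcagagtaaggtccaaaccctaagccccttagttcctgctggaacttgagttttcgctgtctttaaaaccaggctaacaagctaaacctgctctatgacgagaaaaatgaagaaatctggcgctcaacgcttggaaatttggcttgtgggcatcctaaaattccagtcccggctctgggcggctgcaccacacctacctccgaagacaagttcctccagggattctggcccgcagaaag

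The Cdc6 match began 138 bases before the listed start. That window lies inside the annotated Cdc6 gene, which begins at base 98907709. In Mcm5 the matches, 1 on each strand, began 153 and 149 bases before the start and overlapped, and Mcm6 had a similar overlapping pair 110 and 106 bases before the start and a further match 47 bases before it. Cdt1, which did not fall in G1, had its match 32 bases after the start. Tk1, with the largest fall in G1, had no match in this window. A match of letters is a description and not a bound site. CCAAT, the letters of the NF-Y box, occurred in 56.9% of members' promoters and 37.4% of all, and TTTGAA, the letters of the CHR element of G2/M genes, in 17.6% and 17.9%.

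Between genotypes 1 of the 39 genes, Tk1, passed the test. Averaged over the 3 phases, 37 of the 39 differences were below 0, with a median of -0.27, while 49.7% of all tested genes were below 0, with a median of 0. By limma Tk1 was lower in KO cells, and 11 of the 39 genes had an unadjusted p under 0.05, against 13.3% of all genes. Over all tested genes, 1.26% were lower, 0.878% higher and 2.14% changed in either direction. As 1 of 39 is 2.56%, the number of calls was near that background.

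**Figure D4:**
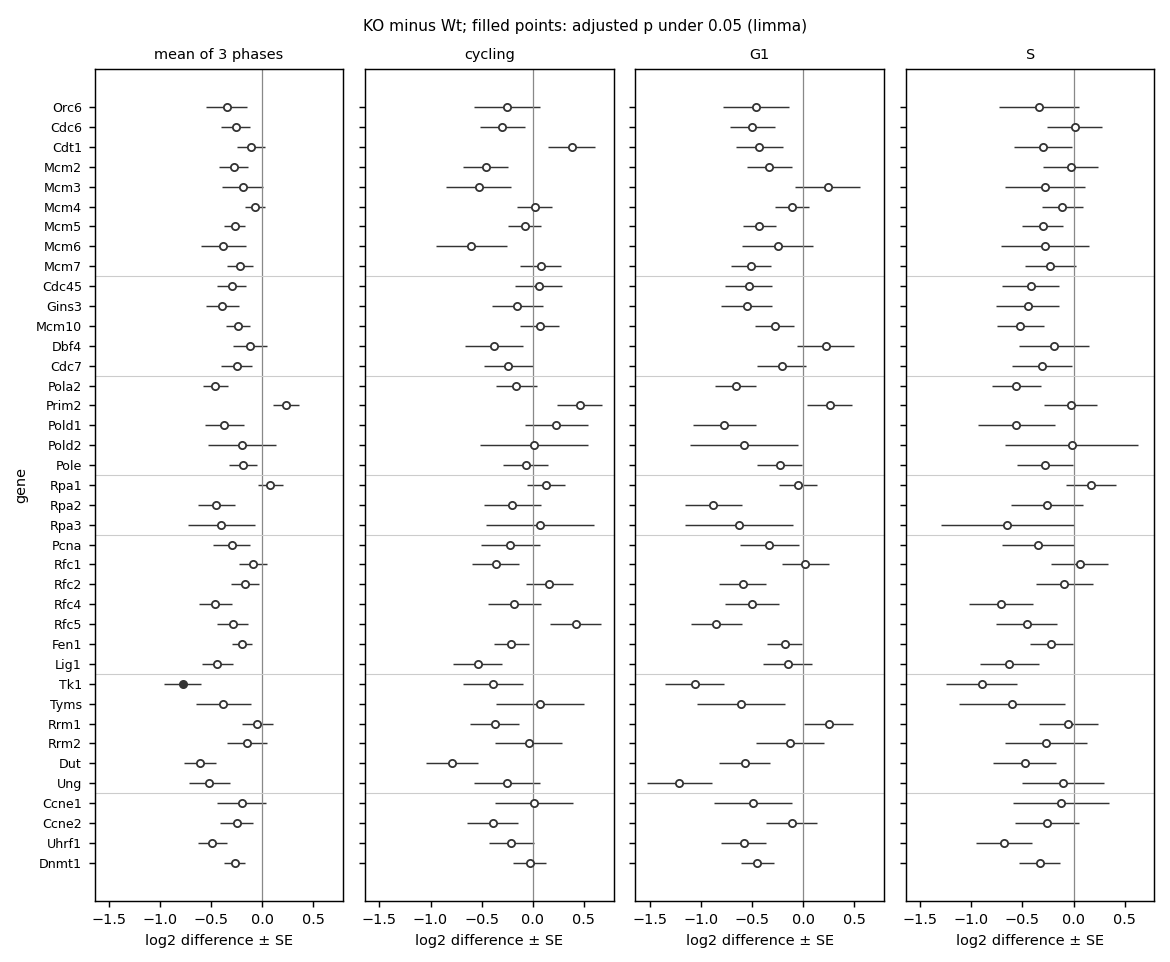
Log2 difference between KO and Wt cells (point) with its standard error (bar) for each of the 39 tested genes, as the mean of the phases and within cycling, G1 and S cells. The filled point, Tk1 in the first panel, is the only one that passed an adjusted p of 0.05 in limma. Most points lie left of 0, 37 of 39 in the first panel, 25 in cycling, 34 in G1 and 36 in S cells.

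Tk1 differed by -0.78 ± 0.18 (adjusted p = 0.0424), or 1.72-fold, and its KO array was the lower one in 8 of 8 pairs. The KO arrays listed above were below the Wt arrays within each phase, by -0.39 in cycling, -1.06 in G1 and -0.90 in S cells, none of which passed alone. Without G1 KO replicate 1, the lowest Tk1 array, the mean difference was -0.65 (adjusted p = 0.00528), and with the 8 pairs as a block the adjusted p was 0.025. Its second probe, detected on 3 of 8 KO arrays, differed by -0.38 (adjusted p = 0.184). The call was lost in 19 of 29 alternatives, among them no filter on dim probes (adjusted p = 0.0594), the replicate number as a block (0.0522), median scaling (adjusted p = 0.199), the slide as a block (0.056) and leaving out any single S array (0.131 to 0.155), G1 Wt array (0.052 to 0.0866) or cycling KO array (0.062 to 0.093), or cycling Wt replicate 1 (0.0916) or 2 (0.0699). Over all alternatives the adjusted p ran from 2.83e-05 to 0.999.

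Dut, the dUTPase, came next. It read 7.08, 7.17 and 6.72 in cycling Wt cells, 5.98, 6.30 and 6.33 in cycling KO cells, 6.45, 6.72 and 6.35 in G1 Wt cells, 5.30, 6.16 and 6.34 in G1 KO cells, 6.69 and 6.83 in S Wt cells and 6.37 and 6.19 in S KO cells. The KO array was below its Wt partner in 8 of 8 pairs, with no overlap within any phase, and the difference was -0.61 ± 0.16 (adjusted p = 0.0673), or -0.51 and called without G1 KO replicate 1 (adjusted p = 0.0182). Ung, which removes the uracil that Dut keeps out of DNA, read 6.82, 7.45 and 6.74 in cycling Wt cells, 6.64, 6.67 and 6.96 in cycling KO cells, 6.73, 7.04 and 6.50 in G1 Wt cells, 4.69, 6.25 and 5.70 in G1 KO cells, 6.09 and 6.17 in S Wt cells and 5.97 and 6.07 in S KO cells. Its genotypes lay apart in G1 and close together in S cells, and the mean difference was -0.52 ± 0.20 (adjusted p = 0.27). Uhrf1 read 11.74, 11.72 and 11.59 in cycling Wt cells, 11.47, 11.32 and 11.63 in cycling KO cells, 10.38, 10.68 and 11.12 in G1 Wt cells, 9.70, 10.39 and 10.36 in G1 KO cells, 11.38 and 11.47 in S Wt cells and 10.73 and 10.75 in S KO cells. The KO array was below its partner in 7 of 8 pairs, and the gap was widest in S cells, with a mean difference of -0.49 ± 0.14 (adjusted p = 0.101). Pola2, at -0.46 ± 0.12 (adjusted p = 0.0824), and Lig1, at -0.44 ± 0.15 (adjusted p = 0.172), had an unadjusted p under 0.05 as well. A second Lig1 probe, detected on no KO array, was at least 1.04-fold lower in KO in cycling cells (adjusted p = 0.429) and at least 1.3-fold lower in S cells (adjusted p = 0.671). Prim2 and Rpa1 were the 2 genes above 0, at 0.23 ± 0.13 (adjusted p = 0.563) and 0.08 ± 0.12 (adjusted p = 0.896). For Prim2 the direction in cycling cells depended on the probe. A second one, detected on all 16 arrays and nearly as bright, had means of 7.14 in cycling Wt and 6.95 in cycling KO cells. The chosen probe had means of 6.76 and 7.21 there. In the other phases the second probe was not lower in KO, with means of 6.73 in G1 Wt, 7.01 in G1 KO, 7.17 in S Wt and 7.18 in S KO cells.

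**Figure D5:**
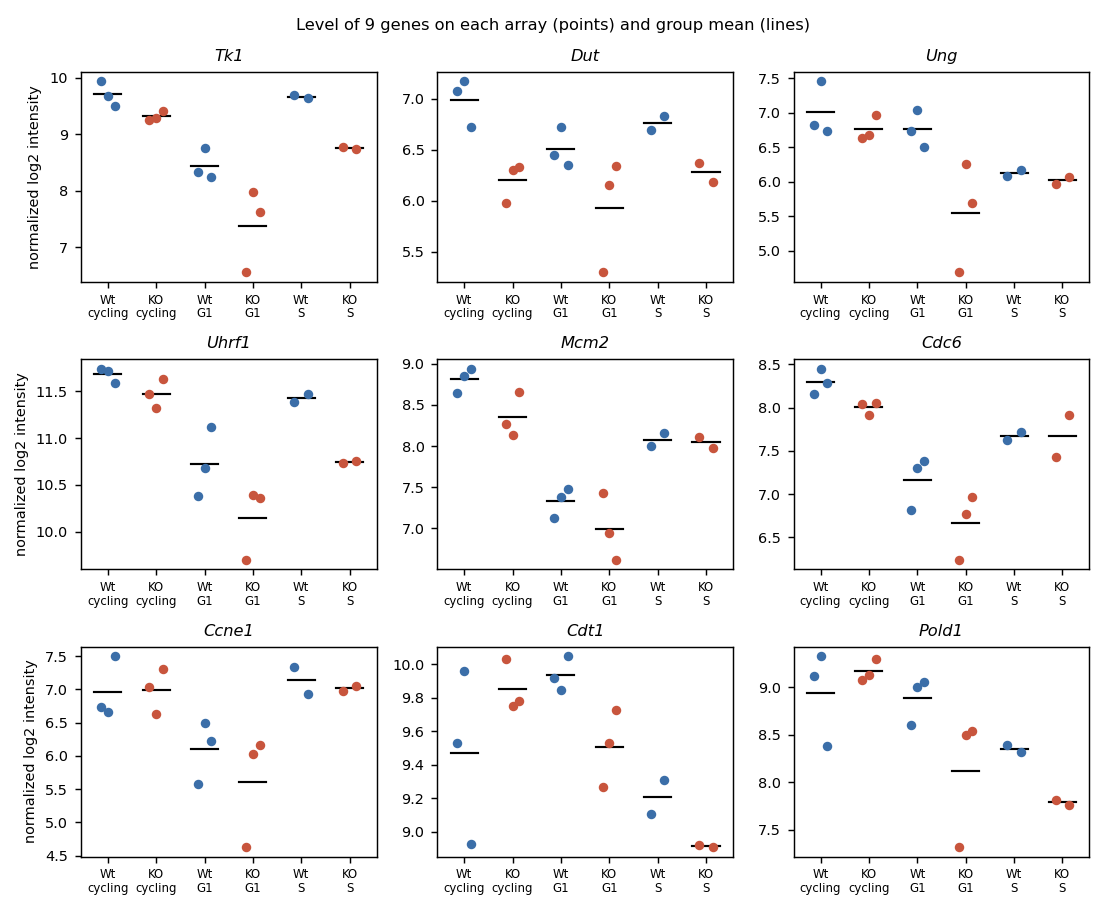
Normalized log2 intensity of 9 genes on each array (points, blue for Wt and red for KO, spread sideways by replicate) with group means (lines). Tk1 and Dut are lower in KO than in Wt cells in each phase, Cdt1 and Pold1 are lowest in S KO cells or on G1 KO replicate 1, and the vertical axes differ between panels.

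In cycling cells no member passed in limma, against 0.344% of all genes, and 2 of 39 had an unadjusted p under 0.05, against 11.1% of all genes. The median difference was -0.16, which became 0.01 with median scaling, a scaling that moved the median of all genes by 0.15. Dut differed by -0.79 ± 0.25 (adjusted p = 0.26), Mcm6 by -0.60 ± 0.35 (adjusted p = 0.589), Lig1 by -0.54 ± 0.24 (adjusted p = 0.445) and Mcm3 by -0.53 ± 0.32 (adjusted p = 0.603). Mcm6 read 10.84, 10.64 and 10.89 in cycling Wt cells, 10.19, 10.27 and 10.12 in cycling KO cells, 10.14, 9.43 and 9.30 in G1 Wt cells, 10.42, 8.80 and 8.89 in G1 KO cells, 10.46 and 10.71 in S Wt cells and 10.28 and 10.33 in S KO cells, so that by this probe the genotypes did not overlap in cycling cells and overlapped in G1. Of its other tested probes, 1 also separated the genotypes in cycling cells, with 9.41, 9.25 and 9.72 in Wt and 8.96, 9.06 and 8.69 in KO. Another did not, with 10.42, 10.53 and 5.85 in Wt and 10.73, 10.71 and 5.33 in KO, nor did the dimmest. Lig1 read 9.22, 9.12 and 9.04 in cycling Wt cells, 8.48, 8.49 and 8.79 in cycling KO cells, 8.37, 7.94 and 7.94 in G1 Wt cells, 8.54, 7.57 and 7.69 in G1 KO cells, 9.21 and 9.35 in S Wt cells and 8.63 and 8.68 in S KO cells. Wt was above KO on all cycling and S arrays. Mcm3 read 6.88, 6.69 and 7.54 in cycling Wt cells, 6.23, 6.89 and 6.40 in cycling KO cells, 5.87, 5.97 and 4.97 in G1 Wt cells, 6.38, 5.40 and 5.76 in G1 KO cells, 6.55 and 6.62 in S Wt cells and 6.30 and 6.30 in S KO cells, with overlap in cycling and in G1 cells. Without cycling Wt replicate 3 the Mcm3 difference in cycling cells was -0.28. In all, 7 members had every cycling KO array below every cycling Wt array and 2 the reverse, against 11.6% and 12.4% of all genes.

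With all 16 arrays the genotypes lay furthest apart in G1 by the median of the 39 genes, -0.45 against -0.02 over all genes. No member passed in limma, against 0.344% of all genes, but 15 of 39 had an unadjusted p under 0.05, against 9.77% of all genes, and 11 members had every KO array below every Wt array, against 6.1% of all genes. Ung differed by -1.21 ± 0.32 (adjusted p = 0.203), Tk1 by -1.06 ± 0.29 (adjusted p = 0.221), Rpa2 by -0.88 ± 0.28 (adjusted p = 0.305) and Rfc5 by -0.85 ± 0.25 (adjusted p = 0.256). Rpa2 read 6.50, 6.46 and 7.16 in cycling Wt cells, 6.50, 6.41 and 6.62 in cycling KO cells, 6.04, 6.97 and 6.48 in G1 Wt cells, 5.09, 5.72 and 6.03 in G1 KO cells, 7.04 and 6.76 in S Wt cells and 6.71 and 6.56 in S KO cells. Its G1 KO arrays were its 3 lowest, the lowest of them below detection. Rfc5 read 8.04, 8.47 and 7.51 in cycling Wt cells, 8.55, 8.39 and 8.35 in cycling KO cells, 7.70, 8.04 and 8.23 in G1 Wt cells, 6.76, 7.42 and 7.24 in G1 KO cells, 8.49 and 8.26 in S Wt cells and 7.94 and 7.90 in S KO cells. Its G1 KO arrays were the 3 lowest of all 16, whereas in cycling cells 2 of 3 pairs were higher in KO. Without G1 KO replicate 1 the differences were -0.78 for Ung, -0.64 for Tk1, -0.62 for Rpa2 and -0.66 for Rfc5, and the median in G1 was -0.29. The median in S cells was -0.28, so the lead of G1 over S depended on that array. With all arrays the G1 median was -0.22 in the authors' value table. It was -0.28 on slide 1 and -0.50 on slide 2, which held G1 KO replicate 1.

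In S cells, with 2 arrays for each genotype, no member passed in limma, against 0.237% of all genes, and 6 of 39 had an unadjusted p under 0.05, against 5.39% of all genes. The median was -0.28, against 0.03 over all genes. For 30 of the 39 members both KO arrays were below both Wt arrays, against 30.7% of all genes, and for 1 of the 39 both were above, against 34.5% of all genes. Tk1 differed by -0.90 ± 0.35 (adjusted p = 0.789), Rfc4 by -0.71 ± 0.31 (adjusted p = 0.908), Uhrf1 by -0.68 ± 0.27 (adjusted p = 0.795) and Rpa3 by -0.65 ± 0.65 (adjusted p = 1). Rfc4, a clamp loader subunit, read 8.32, 8.53 and 8.20 in cycling Wt cells, 8.21, 8.01 and 8.30 in cycling KO cells, 7.14, 7.35 and 7.77 in G1 Wt cells, 6.28, 7.13 and 7.33 in G1 KO cells, 8.11 and 7.92 in S Wt cells and 7.14 and 7.47 in S KO cells. Its S KO arrays lay within the range of its G1 Wt arrays, below S Wt. Rpa3, the smallest subunit of replication protein A, read 10.51, 10.50 and 8.94 in cycling Wt cells, 9.90, 9.96 and 10.30 in cycling KO cells, 10.01, 10.05 and 10.12 in G1 Wt cells, 7.86, 10.28 and 10.17 in G1 KO cells, 10.46 and 10.42 in S Wt cells and 9.75 and 9.83 in S KO cells. Cycling Wt replicate 3 and G1 KO replicate 1 were far below their groups, and Rpa3 shared the widest SE of the 39 genes, 0.65, with Pold2. With the S arrays fitted alone 10 members were called, on a spread estimated from 4 arrays, and without the arrays G1 KO replicate 1 and cycling Wt replicate 3 there were 3.

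Whether the genotype difference itself varied between the phases was tested as an interaction. No member passed, nor did any of the 8428 genes (0%), for G1 against cycling, S against G1 or S against cycling cells, and 4, 1 and 1 members had an unadjusted p under 0.05 by limma, against 9.87%, 1.46% and 4.54% of all genes. The nearest was Rfc5, whose genotype difference in G1 minus that in cycling cells was -1.27 ± 0.35 (adjusted p = 0.507). The fall from cycling to G1 had a median of -0.58 within Wt and -0.90 within KO cells, the rise from G1 to S 0.70 and 0.72, and S lay at -0.03 and -0.21 from cycling cells. The median over the 39 genes of the genotype difference in G1 minus that in cycling cells was -0.33, and -0.14 without G1 KO replicate 1, without which the fall within KO cells was -0.86 and the rise 0.60. Between genotypes, none of the 36 other replication genes was called in the mean over phases, with a median of -0.16. Of the 13 G2/M genes, Ndc80 and Nusap1, which act at the mitotic spindle, were called at -0.65 ± 0.15 (adjusted p = 0.0433) and -0.47 ± 0.11 (adjusted p = 0.035). The median of the G2/M list was -0.50. Over all genes 1.26% were called lower and 0.878% higher in KO in the mean over phases.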

How the data were processed

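Total RNA of 16 samples was hybridised as biotinylated cRNA to Illumina bead arrays. Per the submitters' processing notes BeadStudio 3.0 was used. The deposited non-normalized file pairs the average intensity of every probe with its detection p-value, as read from the headers of the file, and no further processing by the authors is stated for it. The authors' deposited value table holds intensities with a median of 118 on every array, by a method not given in the sources used here, and served as an alternative. Its probes rank as in the non-normalized file (Spearman 1 on every array).

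The intensities were background-corrected by normexp from the detection p-values, raised by an offset of 16, quantile normalized and log2 transformed (neqc, limma 3.58.1, R 4.3.3). Probes were tested where the detection p-value was under 0.01 on every array of at least 1 group. One limma model with a mean for each of 6 groups was fitted to all 16 arrays, with two-sided eBayes tests and Benjamini-Hochberg adjustment over 12078 probes at 0.05. Each gene was read by its tested probe of highest mean level. For a probe undetected throughout the dimmer group, "at least" marks a fold computed against each array's weakest detected signal. Group and replicate number came from the sample titles. The slide was taken from the number that opens each array's code in the labels and headers, which do not themselves call it a slide. The number of arrays limits precision.

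The design text derives each Wt and KO pair from 1 mother, and deviations of same-numbered arrays correlated at 0.196, 0.189 and 0.388 in cycling, 0.423, 0.403 and 0.357 in G1 and 0.0644 in S cells. Arrays of unlike numbers correlated at -0.307 to 0.246 in cycling and -0.396 to 0.276 in G1 cells, and in cycling cells numbers 1 and 2 correlated more across than within a number. Equal numbers within a phase were taken as pairs, from the design text, for the counts of pairs and in the alternative fits with a pair block. The main fit had no pair term, so its p-values do not use the pairing. Pairs of different phases can share a mother, so the pairs counted are not independent. Whether a number is 1 line in all phases is not given in the sources used here. The genes and lists were chosen with earlier results of these data known. Values on every array are given for genes called between genotypes, for the 4 largest differences between genotypes and between phases in each comparison, and for Cdt1. Probes were named through the platform annotation, which gave a symbol for 23978 of 25697 probes. Promoters are from RefSeq. Alternatives were other scalings, the authors' table, no filter, slide, pair and line blocks, array weights, single slides and leaving out arrays. The scripts were tested on simulated data.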

Additional observations from a re-analysis of the deposited data

How the results depend on the processing

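Over the alternatives run no gene called in the report changed sign. The values below are numbers of the 39 genes called. The share of all genes called in the same alternative fit is not given, here or above. A count from such a fit therefore does not set these genes apart from the rest. For KO against Wt over the phases (1 gene), there were 0 with median scaling, with no filter on dim probes, with a slide block and with a replicate number block, 1 with the replicate block of 8 pairs, 23 with array weights and 10 without G1 KO replicate 1 and cycling Wt replicate 3. Leaving out 1 array or 1 number gave 0 to 5: 5 without G1 KO replicate 1, 3 without G1 KO replicate 3, 1 without G1 KO replicate 2 or cycling Wt replicate 3, and 0 without any other array or number. Within phases (0 genes), array weights gave 11 in cycling, 6 in G1 and 16 in S cells, the S groups alone gave 10, the pair of arrays above left out gave 1 in cycling and 3 in S cells, and single arrays left out gave 0 to 1 in cycling cells (1 without G1 KO replicate 1). For G1 against cycling (26), there were 14 with the slide as a block and 15 on slide 1 alone, and 1 to 30 when arrays or numbers were left out, the lowest without number 2. For S against G1 (22), there were 0 on slide 2 alone, 14 with the pair as a random replicate block, and 0 to 25 when arrays or numbers were left out, 0 without number 2, 9 without number 1 and 10 or 11 without any 1 S array. For S against cycling (2), there were 0 with median scaling or the slide block, 5 with no background correction, 5 in the authors' table, 1 with the replicate number or the pair as a replicate block, 19 with array weights, 11 without both arrays named above, and 0 to 9 with arrays left out (9 without G1 KO replicate 1, 0 without Wt S replicate 1 or KO S replicate 2). Interactions gave 2 (G1 against cycling) and 4 (S against cycling) with array weights and 0 otherwise. The cause of these changes was not tested, except that leaving out arrays leaves fewer for the spread. The slide 1 fits and the pair as a random block were chosen after seeing the data.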
